A study of Solanum lycopersicum with 3 samples.

Results

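Chromosome 6 of tomato (Solanum lycopersicum) carried 1371 of the 24176 HSFA1a peaks of replicate 1 and 824 of the 14932 peaks of replicate 2, and those peaks are the subject here. They were taken as every peak of either list on chromosome 6, which was chosen by measured values: it had the fewest peaks per Mb of the 12 numbered chromosomes in both lists. Its low density is therefore given as a description, with no test. Heat shock factor A1a (HSFA1a), a class A heat shock transcription factor, was fused to a Halo-tag, produced in wheat germ extract, bound to beads and offered amplified fragments of genomic DNA, which came from the fourth leaves of M82 tomato plants aged 4 weeks and kept at 24 °C under days with 16 h of light. The 2 HSFA1a-Halo-tag replicates, each a biological replicate by its label, were amplified over 20 PCR cycles and read as 75 bp single reads, and all of the DNA was of the same cultivar, tissue and growth condition. A sample with the Halo-tag alone was not analysed here, so no binding of the tag was subtracted by this work and no test between groups of samples was made.

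Heat shock factors bind DNA as trimers, at inverted repeats of a short GAA-containing unit known as the heat shock element, and class A members switch on chaperone genes when plants are heated. DNA affinity purification sequencing (DAP-seq) offers the protein naked DNA, and the amplified form used here also removes DNA methylation, so its peaks mark sequences that the protein can bind outside the cell and not sites held in a leaf. Tomato chromosomes have gene-rich ends and a long, repeat-rich, gene-poor middle around the centromere. Positions below are those of the M82 assembly (version V1.0), counted from 1. The genes, the centromere and the unresolved bases of that assembly were not analysed here, and neither were the base sequences at the peaks.

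The deficit of chromosome 6 was steepest in 1 block in its left part, and a shallower deficit lay to the right of it. Over an extent of 52.2 Mb, taken to the end of the last peak, chromosome 6 held 26.3 peaks per Mb in replicate 1, against 30.4 ± 1.4 on the other 11 (mean and SD over chromosomes, range 28.9 to 33.6). In replicate 2 it held 15.8 peaks per Mb, against 18.4 ± 0.954 on the other 11 (range 17.6 to 20.6). The nearest in density was chromosome 2 in replicate 1, with 1590 peaks at 28.9 per Mb, and chromosome 11 in replicate 2, with 1044 peaks at 17.6 per Mb. At the pooled density of the other 11, chromosome 6 would have held 1587 peaks in replicate 1 and 959 in replicate 2, so 216 and 135 peaks were missing by that reckoning. An interval of 6.92 Mb, chr6:8847484-15770181, made up 13.3% of the chromosome and accounted for 59.6% of the missing peaks in replicate 1 and 62.2% in replicate 2. It held 82 peaks in replicate 1 (11.8 per Mb) and 43 in replicate 2 (6.21 per Mb). The interval was delimited after the positions of the peaks had been seen, as the span from the first to the last of the 5 longest stretches without a peak.

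To the left of that interval chromosome 6 was not sparse. Its first 8.85 Mb held 287 peaks in replicate 1, or 32.4 per Mb, and 184 in replicate 2, or 20.8 per Mb, which was 17.9 and 21.3 peaks more than the pooled density of the other chromosomes would give there. The 36.4 Mb to the right of the interval held 1002 peaks (27.5 per Mb) in replicate 1 and 597 (16.4 per Mb) in replicate 2, and fell short of that density by 105 and 72.4 peaks, or 48.7% and 53.5% of the deficit. The shares of the interval and of the part to its right add up to more than the whole deficit because the left part was in surplus.

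**Figure D1:**
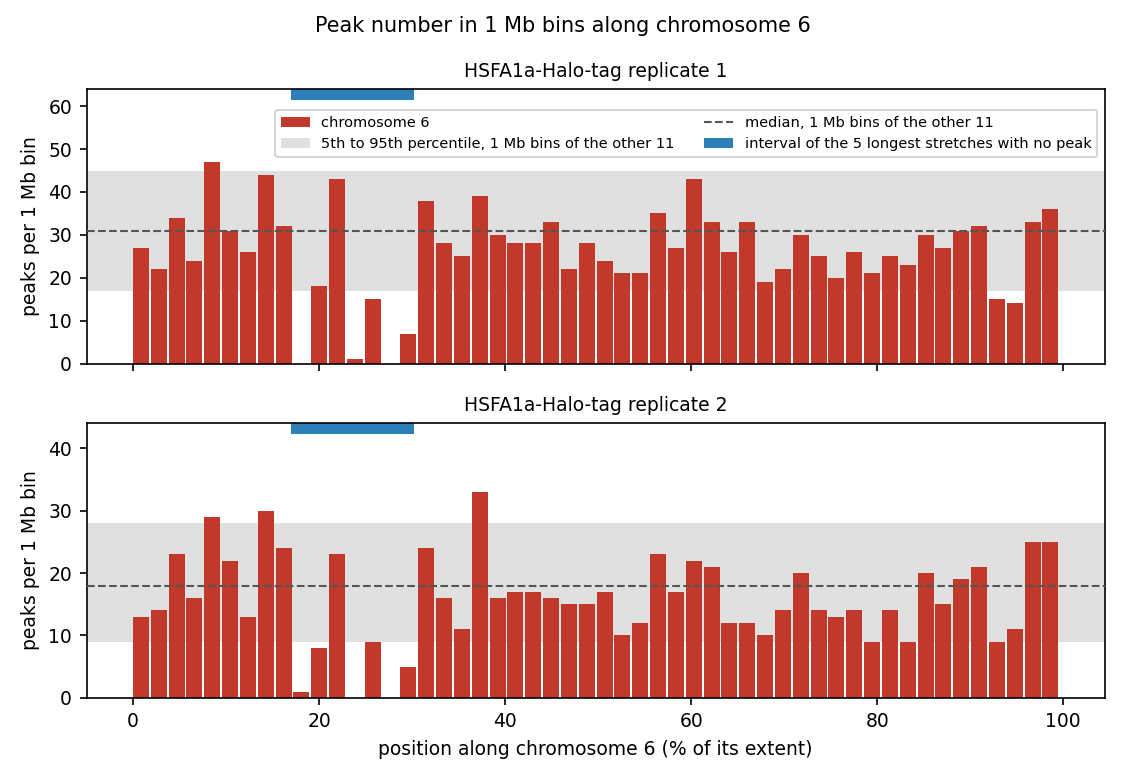
Peaks per 1 Mb bin (vertical axis) against position along chromosome 6 in percent of its extent (horizontal axis), for the 52 full bins in replicate 1 (top) and replicate 2 (bottom), with the 5th to 95th percentile (grey) and median (dashed) of the 744 full bins of the other 11 chromosomes. Under the blue bar, which marks the interval from 17.0% to 30.2% of the extent, bins with no peak or 1 peak stand beside a bin with 43 and 23 peaks.

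In 1 Mb bins the loss was patchy. The 52 full bins of chromosome 6 held 26.2 ± 10.2 peaks in replicate 1 (mean and SD over bins, range 0 to 47), against 30.4 ± 8.63 in the 744 bins of the other 11. In replicate 2 they held 15.7 ± 7.13 peaks (range 0 to 33), against 18.4 ± 5.98. The variance over the mean of the bin counts was 3.97 on chromosome 6 and 2.45 on the others in replicate 1, and 3.23 and 1.94 in replicate 2. Bins with at most 1 peak numbered 3 of 52 on chromosome 6 (5.77%) and 2 of 744 on the others (0.269%) in replicate 1. In replicate 2 they numbered 3 of 52 and 4 of 744 (0.538%). Below the 5th percentile of the other chromosomes' bins, 17 peaks in replicate 1 and 9 in replicate 2, lay 7 and 5 bins of chromosome 6 (13.5% and 9.62%). Of the 744 bins of the others, 34 and 26 lay below these limits (4.57% and 3.49%).

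The emptiest full bins lay between 9 and 16 Mb, with fuller bins among them. The bin from 14 to 15 Mb held no peak of either replicate. The bin from 9 to 10 Mb held 0 peaks in replicate 1 and 1 in replicate 2, and the bin from 12 to 13 Mb held 1 and 0. The bin from 15 to 16 Mb followed with 7 and 5 peaks, and the next in rank was the partial bin at the right end of the chromosome, which is far shorter than the others and held 9 and 6. Between these bins, that from 11 to 12 Mb was among the 5 fullest of the chromosome, with 43 peaks in replicate 1 and 23 in replicate 2. The other 4 of the fullest were the bins from 4 to 5 Mb (47 and 29 peaks), 7 to 8 Mb (44 and 30), 19 to 20 Mb (39 and 33) and 31 to 32 Mb (43 and 22). Across the 52 bins the counts of both replicates rose and fell together (Pearson r = 0.913, Spearman rho = 0.900), and across the 44 bins outside 8 to 16 Mb r was 0.863. Both lists come from the same DNA source and assembly, so these are descriptions and carry no p-value. Leaving out the 8 bins between 8 and 16 Mb, the remaining bins held 28.3 ± 7.18 peaks in replicate 1 (range 14 to 47) and 17.0 ± 5.84 in replicate 2 (range 9 to 33).

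The interval was bounded by the 5 longest stretches of chromosome 6 without a peak of either replicate. The longest, chr6:12012969-13436494, spanned 1.42 Mb. It was followed by chr6:13941879-15093073 (1.15 Mb), chr6:9449841-10594289 (1.14 Mb), chr6:15114866-15770181 (0.655 Mb) and chr6:8847484-9449706 (0.602 Mb). The sixth longest stretch of the chromosome reached only 236 kb. The median over all stretches between peaks was 21.5 kb on chromosome 6 and 19.2 kb on the other 11. In replicate 1 alone the stretches ranked 3 and 5 were joined into one of 1.75 Mb, because a single peak of replicate 2 divided them. That peak, chr6:9449707-9449840, was weak, with a fold enrichment of 3.01 over a pileup of 14 reads, and had no partner in replicate 1.

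Stretches of this length were rare in the genome. Chromosome 6 held 5 of the 16 stretches of at least 0.5 Mb on the 12 chromosomes, and 4.98 of their 15.6 Mb, or 32.0%, while it made up 6.51% of the total extent. They covered 9.54% of chromosome 6 and 1.41% of the other 11 chromosomes together. Among the others chromosome 8 came closest, with 5.07%, and it held the longest stretch anywhere, of 2.05 Mb. At a lower limit of 250 kb, 5 stretches lay on chromosome 6 and 52 on the others, so chromosome 6 had no stretch between 250 kb and 0.5 Mb. Stretches of at least 1 Mb numbered 3 on chromosome 6 and 4 on the others.

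**Figure D2:**
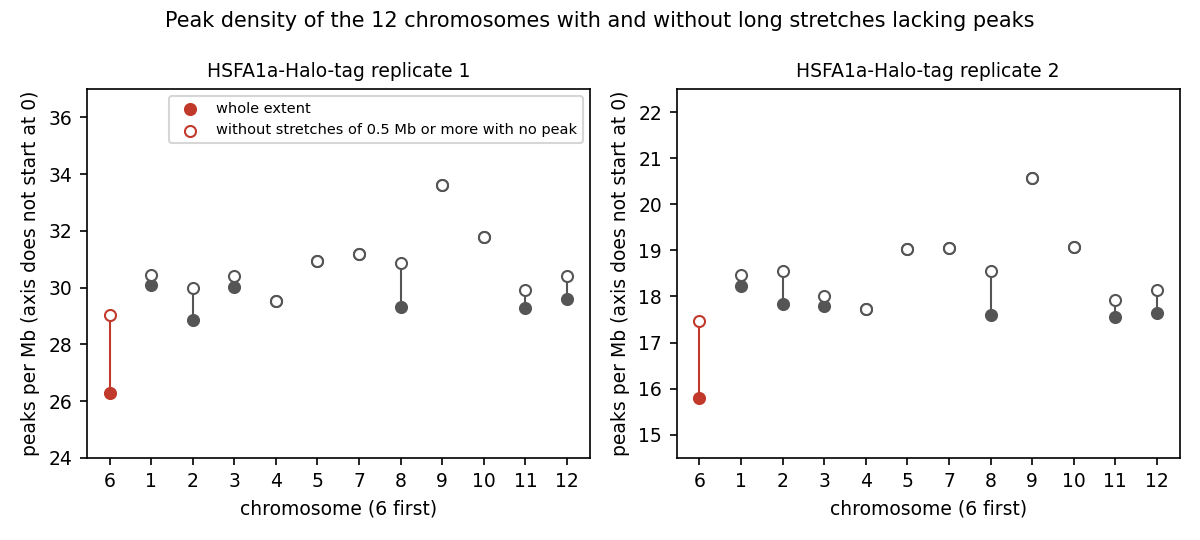
Peaks per Mb (vertical axis, which does not start at 0) on each of the 12 chromosomes, chromosome 6 first, over the whole extent (filled points) and after stretches of at least 0.5 Mb without a peak were taken out of it (open points), for replicate 1 (left) and replicate 2 (right). The open points of chromosome 6, at 29.1 and 17.5 per Mb, stay below those of all other chromosomes but lie close to chromosome 4, at 29.5 and 17.7.

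With those stretches taken out of every chromosome, chromosome 6 held 29.1 peaks per Mb in replicate 1, against 29.5 to 33.6 on the other 11. In replicate 2 it held 17.5, against 17.7 to 20.6. It remained the lowest of the 12 in both replicates. The mean difference over both replicates was then -1.48 peaks per Mb, against -3.34 over the whole extent. Whether the DNA of these stretches could have given peaks at all was not tested.

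Islands of peaks stood between the empty stretches. The widest, chr6:10594290-12012968, held 62 peaks of replicate 1 in 1.42 Mb (43.7 per Mb) and 31 of replicate 2 (21.9 per Mb). A second island of 505 kb, chr6:13436495-13941878, held 15 and 9 peaks (29.7 and 17.8 per Mb). The third, chr6:15093074-15114865, was 21.8 kb wide and held 5 and 2 peaks. Together with the single peak described above, the islands covered 1.95 Mb. Their density was 42.1 per Mb in replicate 1 and 22.1 in replicate 2, both above the pooled densities of the other chromosomes, 30.4 and 18.4, while the island of 505 kb lay slightly below them. An island begins and ends at a peak, which raises its density somewhat. A strong site of the islands, chr6:13941559-13941878, bordered the 1.15 Mb stretch, and its fold enrichment was 13.2 in replicate 1 and 19.6 in replicate 2. Its pileup was 196 and 82 reads.

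Within the interval fewer peaks of replicate 1 had a partner in replicate 2. An overlap of at least 1 bp was found for 35 of its 82 peaks, or 42.7% (95% Wilson interval 32.5 to 53.5, counting error only), against 56.9% (54.2 to 59.6) on the rest of chromosome 6. For replicate 2 it was 35 of 43, or 81.4% (67.4 to 90.3), against 94.1% (92.2 to 95.6). The share also varied outside the interval, as 10 equal parts of the chromosome showed. In replicate 1 it was 49.3% (41.3 to 57.3) from 20.9 to 26.1 Mb and 49.4% (41.6 to 57.1) from 31.3 to 36.5 Mb. The highest was 66.7%, from 47.0 to 52.2 Mb. In replicate 2 these 3 parts had 87.8% (79.0 to 93.2), 98.7% and 94.9%. The median fold enrichment in the interval was 3.93 in replicate 1, against 4.70 on the rest of the chromosome, and 6.19 in replicate 2, against 6.60.

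Every chromosome was also cut into 10 segments of equal length, numbered from its start, so that like positions could be compared. Segment 3 of chromosome 6 (10.4 to 15.7 Mb) stood apart. It held 15.7 peaks per Mb in replicate 1, against 31.7 ± 2.65 in segment 3 of the other 11 (range 27.6 to 37.3). In replicate 2 it held 8.05, against 19.5 ± 2.27 (range 16.8 to 23.8). This was 49.6% and 41.4% of the others' mean, and below all 11 in both replicates. The shallower deficit to the right was uneven. Segments 4, 9 and 10 had 95.6%, 99.6% and 97.6% of the others' mean in replicate 1, and 103%, 87.9% and 113% in replicate 2. Segment 6 had 82.4% and 87.6%. In segment 8 (36.5 to 41.7 Mb) chromosome 6 had 24.7 peaks per Mb in replicate 1, against 33.2 on the others, and was below 10 of the 11. In replicate 2 it had 14.8 there, against 20.1, and was below all 11. Segment 1 lay on the other side, with 31.4 peaks per Mb in replicate 1, against 25.7 ± 3.63, and 19.7 in replicate 2, against 15.2 ± 1.74. It was above 10 of the 11 others in replicate 1 and above all 11 in replicate 2. Taking the outer 20% at each end together, the density of chromosome 6 fell inside the range of the others, at 27.2 per Mb against 27.6 ± 1.98 in replicate 1 and 17.3 against 17.0 ± 1.22 in replicate 2. In the middle 60% it was below all 11, at 25.7 against 32.2 ± 2.3 and 14.8 against 19.3 ± 1.14. Where the middle began and ended mattered: with only the outer 10% set aside at each end, the ends were above the others by 0.20 on the log2 scale (mean of both replicates), and with the outer 30% set aside they were below by 0.23.

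**Figure D3:**
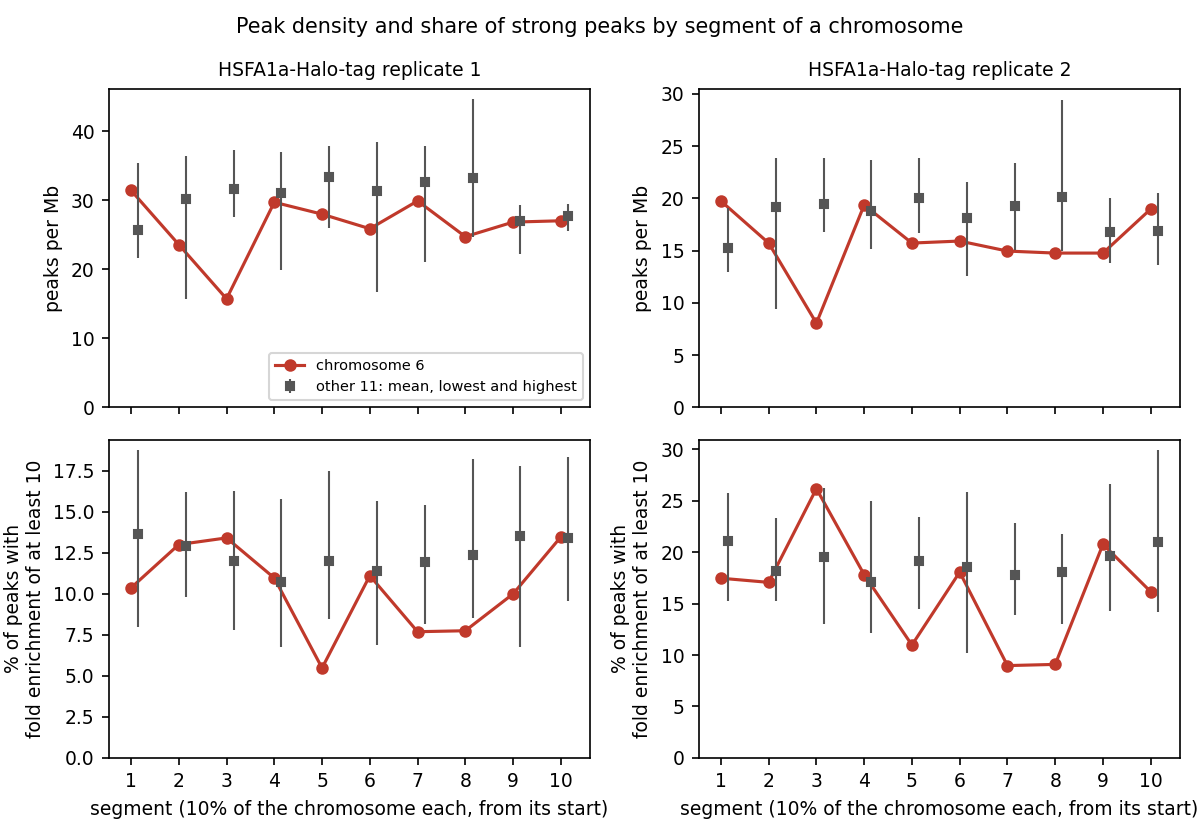
Peaks per Mb (top) and percent of peaks with a fold enrichment of at least 10 (bottom) in 10 equal segments of a chromosome counted from its start (horizontal axis), for chromosome 6 (red) and the other 11 (grey squares are means, bars run from the lowest to the highest chromosome), in replicate 1 (left) and replicate 2 (right). The density of chromosome 6 dips in segment 3 (15.7 and 8.05 per Mb), while its share of strong peaks dips in segments 5, 7 and 8.

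Peak strength was described by the fold enrichment, which is the number of fragments piled up at the summit over the local background, with 1 added to both. The rule did not use it, but peaks of one library are no replicates, so chromosomes were only ranked. The median peak of chromosome 6 lay inside the range of the others, at 4.68 in replicate 1, within the 4.64 to 4.91 of the other 11, and 6.55 in replicate 2, within 6.43 to 6.76. Without the 1 added to both numbers the median ratio was 5.02 in replicate 1, within 4.998 to 5.27, but 8.55 in replicate 2, below the 8.59 to 9.03 of the others. Strong peaks were scarcer. A fold enrichment of at least 10 was reached by 139 of the 1371 peaks in replicate 1, or 10.1%, against 12.2% of all peaks on the 12 chromosomes and 10.9 to 13.4% on the single other chromosomes. In replicate 2 it was reached by 131 of 824, or 15.9%, against 18.8% of all peaks and 17.7 to 20.1% on the others. Chromosome 6 had the lowest share of the 12 in both replicates.

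The share of strong peaks was not low where the density was lowest. In segment 3, with its empty stretches, 11 of 82 peaks of replicate 1 were strong (13.4%), against 12% in the same segment of the others, and 11 of 42 of replicate 2 (26.2%), against 19.6%. The share was low in segments 5, 7 and 8, where it was below all 11 other chromosomes in both replicates. Their peak density was also low, below all 11 others in replicate 2 and below 9 or 10 of the 11 in replicate 1. Segment 5 had 8 strong peaks of 146 in replicate 1 and 9 of 82 in replicate 2. Segment 7 had 12 of 156 and 7 of 78, and segment 8 had 10 of 129 and 7 of 77. In these 3 segments together, which were picked after their values had been seen, 30 of 431 peaks of replicate 1 were strong, or 6.96% (4.92 to 9.76, counting error only), against 12.2% on the other 11 (range 10.3 to 15.1%). In replicate 2 it was 23 of 237, or 9.70% (6.55 to 14.1), against 18.4% (15.5 to 20.5%). In the remaining segments the share of chromosome 6 was 11.6% in replicate 1 and 18.4% in replicate 2, above 3 and above 2 of the other 11. The other chromosomes lost the same numbered segments and not their own lowest ones. A rise in the rank of chromosome 6 was therefore built into that choice. The median fold enrichment in the 3 segments was 4.46, against 4.69 on the others, in replicate 1, and 6.33, against 6.65, in replicate 2.

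**Figure D4:**
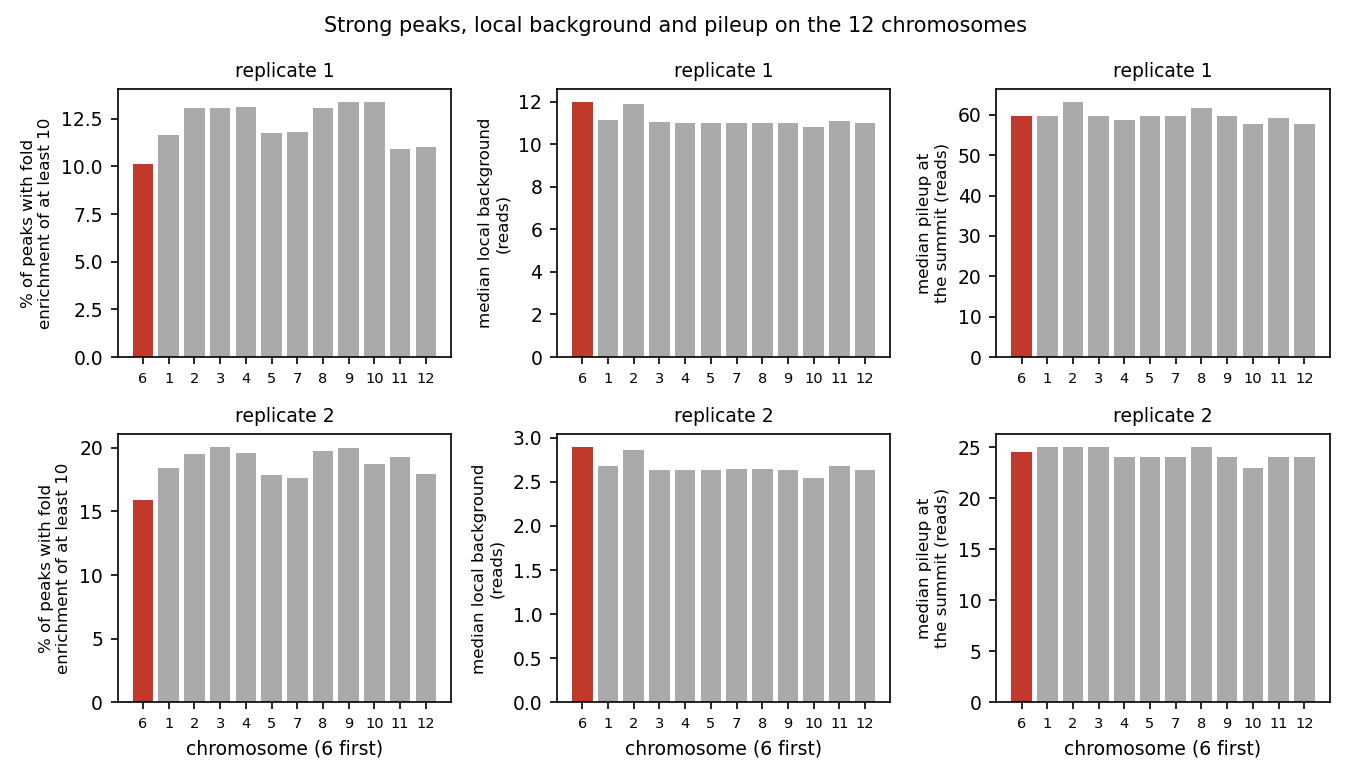
Percent of peaks with a fold enrichment of at least 10 (left), median local background in reads (middle) and median pileup at the summit in reads (right) on each of the 12 chromosomes, chromosome 6 first in red, for replicate 1 (top) and replicate 2 (bottom). Chromosome 6 has the lowest bar on the left (10.1 and 15.9%) and the highest in the middle (12 and 2.89), with a pileup inside the range of the others.

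Pileup and background were worked out from the fold enrichment and p-value of each peak. The median background under the peaks of chromosome 6 was 12 reads in replicate 1, against 10.8 to 11.9 on the other 11, and 2.89 in replicate 2, against 2.54 to 2.86. It was the highest of the 12 in both. The median pileup was inside the range of the others, at 59.8 against 57.9 to 63.3 in replicate 1 and 24.5 against 23 to 25 in replicate 2. Of the peaks of chromosome 6, 10.3% in replicate 1 and 11.7% in replicate 2 belonged to the 10% of all peaks with the highest pileup, which ranked it 8 and 11 from the lowest. In segments 5, 7 and 8 together the median pileup was 54.9 against 57.9 on the others in replicate 1, and 23 against 24 in replicate 2. In the remaining segments it was 63.8 against 60.8, and 25 against 24. In median background chromosome 2 came next below chromosome 6 in both replicates, with 11.9 and 2.86. Its share of strong peaks was 13.1% and 19.5%. Its pileups were high as well, with a median of 63.3 in replicate 1, the highest of the 12, and 25 in replicate 2. Its share of peaks among the 10% of all peaks with the highest pileup was the largest of the 12 in both. The segment values that follow are those of chromosome 6. By segment, the background was above that of all 11 others in both replicates in segment 2 (13 against a mean of 10.6 in replicate 1, and 2.98 against 2.51 in replicate 2), in segment 3 (12 against 11, and 2.89 against 2.62) and in segment 6 (12 against 11.1, and 3.07 against 2.67), where in replicate 1 the highest of the others was nearly equal. In segment 9 it was 14 against 11.1 in replicate 1, above all 11, and 3.16 against 2.64 in replicate 2, above 10. In segment 5, where few peaks were strong, it was 10.8 against 11 in replicate 1 and 2.46 against 2.68 in replicate 2, where no other chromosome had less. In segment 7 it was 10.8 against 10.9 in replicate 1, above 3 of the 11 others, and 2.69 against 2.63 in replicate 2, above 10. In segment 8, also short of strong peaks, it was 11.1 against 10.6 in replicate 1, above 10 of the 11 others, and 2.93 against 2.61 in replicate 2, above all 11. The part of the background in the share of strong peaks was not tested.

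Sharing between the replicates lay inside the range of the other chromosomes. Of the peaks of chromosome 6 in replicate 1, 769 of 1371 overlapped a peak of replicate 2, or 56.1% (53.5 to 58.7), against 55.9% of all peaks. In the other direction it was 770 of 824, or 93.4% (91.5 to 94.9), against 92.6% of all peaks. These shares ranked 7 and 10 from the lowest of the 12. The sharing followed strength. Below a fold enrichment of 4, 23.6% of the replicate 1 peaks were shared (22.1% on the other 11), from 4 to 6 it was 54.3% (53.8%), from 6 to 10 it was 90.7% (88.6%), and at 10 or more 136 of 139, or 97.8% (99.4%). In replicate 2 all 131 peaks with a fold enrichment of at least 10 had a partner, and 37 of the 65 below 4, or 56.9% (61.5% on the others).

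Few strong peaks lacked a partner. In replicate 1 the first 3 were chr6:46128533-46128788, with a fold enrichment of 12.1, chr6:24654660-24654898, with 11.9, and chr6:43321276-43321521, with 11.4. The nearest summit of replicate 2 lay 32.8, 8.19 and 10.3 kb away. These are all of the replicate 1 peaks of at least 10 that were not shared. In replicate 2 no peak of at least 10 lacked a partner. Its first 3 unshared peaks were chr6:19304421-19304581, with 7.14, chr6:37325860-37326007, with 7.04, and chr6:24347152-24347313, with 6.15, at pileups of 18, 19 and 16 reads.

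Over the 769 pairs of chromosome 6, the rank correlation of the fold enrichments was 0.807 (Spearman rho) and the linear one of their log2 values 0.822 (Pearson r). Both are given without a p-value because the pairs share their DNA source and the same peak caller. Replicate 2 was higher in 61.9% of pairs, with a median log2 ratio of replicate 2 over replicate 1 of 0.11 (SD 0.38 over pairs). The 1 added to pileup and background made this difference smaller: without it replicate 2 was higher in 85.8% of pairs, with a median log2 ratio of 0.40. Summits lay a median of 10 bp apart, and 96.4% were within 50 bp. A fold enrichment of at least 10 in both replicates was found in 89 pairs, or 1.71 per Mb, against 2.12 to 3.13 per Mb on the other 11, the lowest of the 12. As a share of pairs it was 11.6%, against 14.7% over all chromosomes. Of the 89 pairs, 23 lay left of the sparse interval (25.8%, against 22.1% of all 769 pairs), 9 in it (10.1%, against 4.55%) and 57 to its right (64%, against 73.3%).

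**Figure D5:**
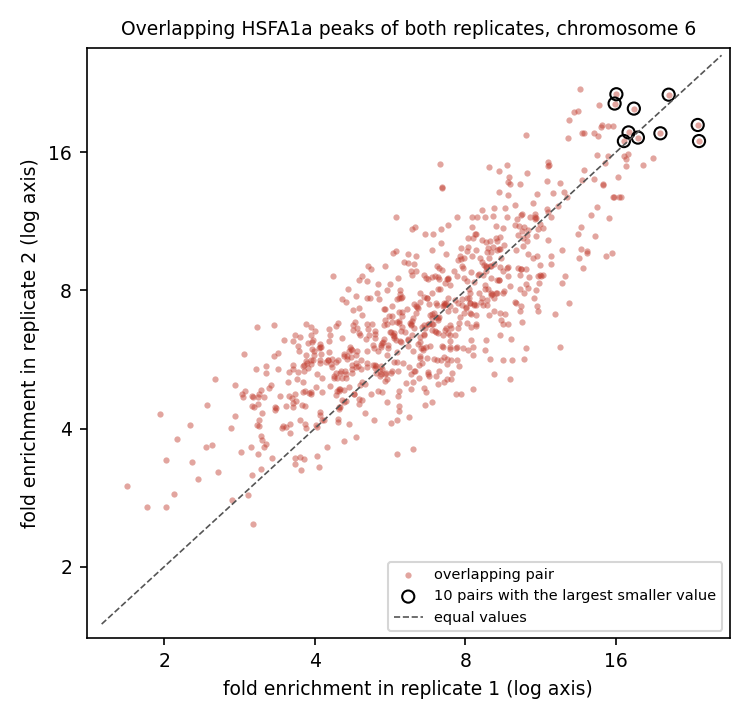
Fold enrichment in replicate 2 (vertical axis) against that in replicate 1 (horizontal axis), both log axes, for the 769 overlapping pairs of chromosome 6, with the 10 strongest pairs circled and the line of equal values dashed. The points follow the line with a spread (Spearman rho 0.807), and the circled pairs lie between 15.9 and 23.4 in replicate 1 and between 16.9 and 21.4 in replicate 2.

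The 10 strongest shared sites were ranked by the smaller of both fold enrichments. First was chr6:52090169-52090491, close to the last peak of the chromosome, with 20.4 in replicate 1 and 21.3 in replicate 2. Its pileups were 182 and 56 reads over backgrounds of 8 and 1.67, and it ranked 18th among the pairs of the whole genome. Next came chr6:50817535-50817803, with 23.3 and 18.3, which ranked 48th. A site to its left, chr6:50392098-50392379, had the highest value of replicate 1 on the chromosome, 23.4, and 16.9 in replicate 2. So 3 of the 10 lay in the last 2 Mb, which held 6.11% of all 769 pairs. Of the 89 pairs of at least 10 in both replicates, 6 lay there (6.74%), a share close to that of all pairs.

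Another 4 lay in the first 8 Mb, which held 19.6% of all pairs. That stretch held 20 of the 89 pairs of at least 10 in both replicates (22.47%), slightly above its share of all pairs. Both stretches were delimited after the sites had been seen. The 4 sites were chr6:3013945-3014202, with 17.4 and 19.9, chr6:3152190-3152481, with 15.9 and 20.4, chr6:2732492-2732853, with 16.6 and 16.9, and chr6:7766025-7766316, with 16.0 and 21.4. The last had the highest pileup of the 10, at 239 and 89 reads, over backgrounds of 14.0 and 3.21 reads. At the site from 2732492 a second summit of replicate 1 lay only 449 bp away. The other three were chr6:30466135-30466449, with 19.6 and 17.6, chr6:30666019-30666358, with 17.7 and 17.2, and chr6:42968982-42969255, with 16.9 and 17.7. The 11th pair, just outside, was chr6:8331402-8331697, with 16.9 and 15.9. Ranks within this group depend on the measure. Ordered by the smaller −log10 q-value in place of fold enrichment, 1 of the 10 stayed among the first 10, and ordered by replicate 2 alone 4 stayed.

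Peaks of chromosome 6 were spaced more widely, a measure that moves with the density used to choose it. The next summit lay within 10 kb for 29.2% of the peaks in replicate 1, against 29.1 to 32.9% on the other 11, and for 20.1% in replicate 2, against 20.0 to 24.1%. In both it was the second lowest of the 12. The median distance to the next summit was the longest of the 12 in both, at 22.3 kb against 18.7 to 21.1 kb in replicate 1, and at 39.0 kb against 32.6 to 36.5 kb in replicate 2. Clusters were present all the same. The densest 100 kb of replicate 1 held 11 summits, from 4683169 to 4773167, and the densest 10 kb held 5, from 25582447 to 25589180. The median peak width was 216 bp in replicate 1, against 213 to 219 bp on the other 11. In replicate 2 it was 185 bp, against 180 to 184 bp, the widest of the 12.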

How the data were processed

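AmpDAP-seq peak lists of 2 HSFA1a-Halo-tag replicates from leaf DNA of cultivar M82 were used, and 1 Halo-tag sample was not analysed here. Per the labels, the submitters' processing notes name Trimmomatic 0.38, Bowtie2 2.3.5, SAMtools 1.9 and MACS2 2.2.7.1. No pipeline particular to AmpDAP-seq was described, so the control given to MACS2 and the filters on duplicate and ambiguous reads are not given in the sources used here. The assembly, M82 V1.0, is the one the methods name for their other sequencing. The authors deposited 1 peak list per library. The limit of these lists is named as a q-value of 0.05, and the highest q-value in them was 0.0474. The deposited fold is the fold enrichment ratio at the summit, (pileup + 1)/(background + 1), in which 1 is the pseudocount. The deposited p-value and q-value are on the −log10 scale, and the deposited score column follows from the q-value and was not used further. Positions were turned from 0-based to 1-based.

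Pileup and background were solved from fold enrichment and p-value under the Poisson tail of MACS2, within a tolerance of 0.005. All peaks were solved, in replicate 1 with pileups in steps of 0.981, a factor found after seeing the values (whole pileups solved 2.73%). The 12 numbered chromosomes, each with 100 or more peaks per list, were compared, and lengths run to the last peak end of either list. Peaks were shared if they overlapped by 1 bp. Sites named were the 10 pairs of highest smaller fold enrichment, the 3 strongest unshared peaks per replicate, the 5 longest stretches without a peak, and the 5 fullest and emptiest bins. The overlap, gap and solving steps were tested on simulated data. The depth of the libraries is unknown, so 95% Wilson intervals cover the counting of peaks only. With 2 libraries of 1 condition and a chromosome selected on its density, values were described and ranked, and no p-value was computed. Members and lists were chosen with earlier results of these data known. Python 3.11.15, pandas 2.3.3 and scipy 1.17.1 were used.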

Additional observations from a re-analysis of the deposited data

How the results depend on the processing

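Chromosome 6, chosen for its low density in both lists, stayed below the mean density of the other chromosomes under all alternatives tried. With 1 replicate left out this outcome was fixed by that choice, and the filtered lists are parts of the same lists. The difference of -3.34 peaks per Mb shrank to -1.92, -1.48 and -1.90 when stretches of at least 0.25, 0.5 and 1 Mb with no peak were left out of every chromosome (added after seeing the data), and was -4.10 to -2.58 with 1 replicate left out. The density of its outer 20% did not differ in a stable direction: the log2 ratio of 0.0029 became -0.0062 at a q-value of 1e-05, 0.20 with the outer 10% and -0.23 with the outer 30%, and -0.020 to 0.026 with 1 replicate left out. The middle stayed lower, at -0.19 against -0.36 when the outer 30% were set aside. The longest stretch without a peak grew from 1.42 to 1.78 Mb at a q-value of 1e-05 and at a fold enrichment of at least 4, and was 1.46 to 1.75 Mb with 1 replicate left out. The union of both lists, 1425 regions, became 824 to 1371 with 1 replicate left out, and a fold enrichment of at least 4 left 859 peaks of replicate 1.

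The log2 difference in median fold enrichment, -0.020, was -0.027, -0.035 and -0.026 at a q-value of 0.01, of 1e-05 and a fold enrichment of at least 4, -0.0027 for the −log10 q-value and -0.050 without the pseudocount. The deficit in the share of strong peaks, -2.67 percentage points, was -3.38 among peaks of at least 4 and -1.63 at a limit of 12. The log2 excess of background, 0.13, was 0.11 at a q-value of 1e-05 and 0.10 among peaks of at least 4. The shared percentage of replicate 1 was 74.6 among peaks of at least 4 and 80.9 with lists of equal length, and that of replicate 2 was 84.6 and 80.8, and 96 at a q-value of 1e-05. The Spearman rho of pairs was 0.740 among peaks of at least 4. Next summits within 5 and 20 kb made up 15.1 and 39.3%, and within 10 kb 20.1 to 29.2% with 1 replicate left out. Bins below 25% of the median density covered 5.75% of the chromosome at 1 Mb, 8.63% at 0.5 Mb and 3.83% at 2 Mb. Of the 10 strongest pairs, 1 remained among the first 10 by −log10 q-value, which grows with the pileup, and 4 to 7 with 1 replicate left out. No paired analysis was possible because no test between groups was made: the sample with the tag alone was left out. The depth of each library is unknown, and the causes of these shifts were not tested.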
